A study of Mus musculus with 47 samples.

Results

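Insulin signalling and glucose uptake were examined in single fast-twitch muscle fibres through 10 genes chosen by name from the 24421 in the count tables. They were the glucose transporters Slc2a4 and Slc2a1, the Rab GTPase-activating proteins Tbc1d1 and Tbc1d4, the receptors Insr and Igf1r, the receptor substrates Irs1 and Irs2, the kinase Akt2, and Pik3r1, a regulatory subunit of phosphoinositide 3-kinase (PI3K). All 10 were among the 12863 genes that passed the filter on low counts. Each sample was the RNA of 1 fibre of the extensor digitorum longus (EDL), a fast hindlimb muscle, from FVB/N mice aged 2 to 3 months. There were 27 fibres of wild-type (WT) mice and 20 of C2KO mice, in which a run of exons of Mybpc2, which encodes the fast isoform of myosin binding protein C, had been replaced by a neomycin cassette between LoxP sites in the germline. The labels name 3 WT and 2 C2KO mice, tie no fibre to a mouse, and name no insulin or other treatment.

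In muscle, insulin binds its receptor INSR, which phosphorylates IRS adaptors. These recruit PI3K, whose lipid product activates AKT, and AKT2 inactivates TBC1D1 and TBC1D4 so that vesicles carrying the transporter GLUT4 (the product of Slc2a4) reach the surface. GLUT1, the product of Slc2a1, takes up glucose at rest and does not depend on insulin. Contraction moves GLUT4 by a separate route in which the kinase AMPK also acts on TBC1D1.

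Fibres were summed into 5 pools, the unit of every test. WT pools 1 and 2 (10 fibres each) and 3 (7 fibres) were 3 sequencing runs, and C2KO pools 740 and 2445 (10 fibres each) were the 2 prefixes of the fibre names, which are not said to be mice. Depth ran from 7648762 to 14606631 counts per fibre. Run was almost confounded with genotype, since only run 0092 held both, with 1 C2KO fibre. Mybpc2 had at least 6563 CPM (counts per 1e6 counts of the fibre) in each WT fibre and at most 47.6 CPM in each C2KO fibre. The study lists male mice for this assay, whereas 12 WT fibres and all 10 of pool 2445 held more Xist than Y-linked counts, and 15 WT fibres and all 10 of pool 740 held more Y-linked counts. All 10 skeletal fibre markers, such as Atp2a1, had counts in every pool, and their sum was 297900 to 347400 CPM in WT fibres and 265800 to 358500 CPM in C2KO fibres. Fibroblast markers (14 genes, most abundant Gsn) had a median sum of 6.17, 3.58 and 2.04 CPM in the WT pools, 32.6 CPM in pool 740 and 0.752 CPM in pool 2445, and reached 5334 CPM in pool 740. Of the 12 fibres highest in fibroblast and endothelial markers, 5 were of pool 740, 2 of pool 2445 and 5 of WT pools 1 and 2. Medians of the endothelial, macrophage and Schwann, pericyte or smooth muscle sums were at most 3.25 CPM in both genotypes. By pool, the Schwann, pericyte or smooth muscle median reached 4.36 CPM in WT pool 1 and 5.16 CPM in pool 740. The adipocyte sum had a median of 0. Satellite cell markers (most abundant Sdc4) summed to a median of 69.3 CPM in WT and 98.45 CPM in C2KO fibres. Sdc4 alone had medians of 24.9 CPM (WT) and 49.1 CPM (C2KO). Split by pool, the WT medians of the sum were 83.8, 58.5 and 71.05 CPM. Pool 740 was above these at 124.6 CPM, whereas pool 2445, at 71.25 CPM, lay inside the WT range.

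The members differed widely in level per length of transcript in WT. On the scale of CPM per kilobase of exon, Slc2a4 was highest at 222 ± 6.31 (SD, n = 3 pools), followed by Akt2 at 67.2 ± 3.34 and Irs2 at 65.98 ± 1.502, whose pools overlapped. Tbc1d1 came next at 20.6 ± 6.14, then Slc2a1 at 8.44 ± 3.51 and Irs1 at 5.02 ± 1.09, again with overlapping pools. Insr was at 1.80 ± 0.391. Pik3r1 at 0.777 ± 0.199, Igf1r at 0.659 ± 0.102 and Tbc1d4 at 0.478 ± 0.131 closed the order, and neighbours among these overlapped.

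**Figure D1:**
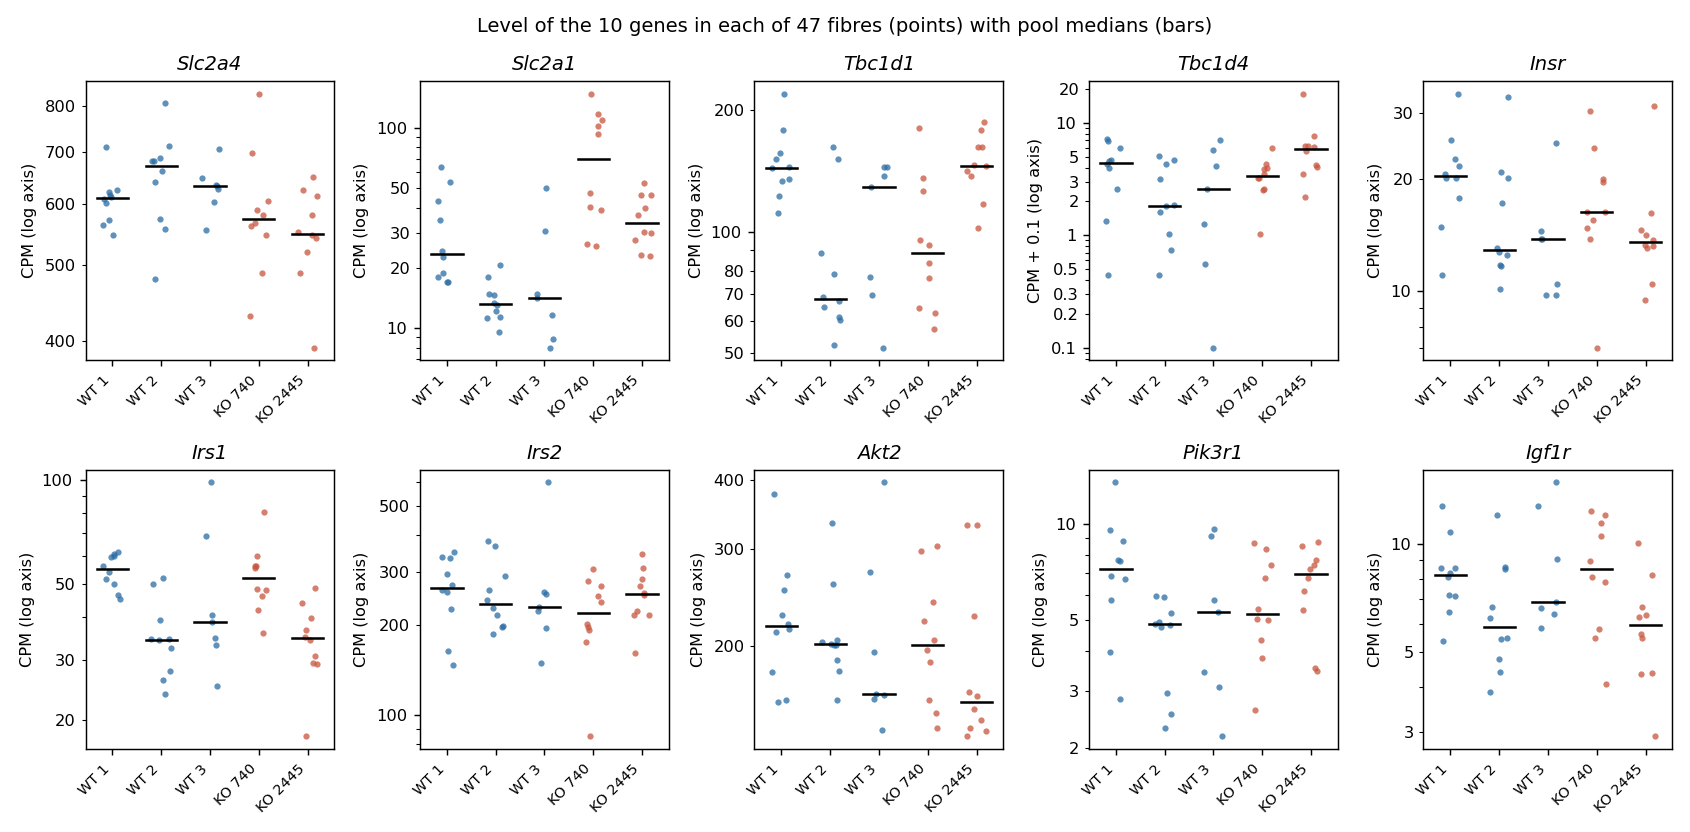
CPM of the 10 genes in each fibre on log axes, by pool (WT 1 to 3 in blue, C2KO pools 740 and 2445 in red); each point is 1 fibre and each bar the pool's median, and 0.1 is added for Tbc1d4, which had 0 counts in 1 fibre. Slc2a1 is the gene whose C2KO fibres sit highest relative to WT, with all 20 above the WT median of 17.1 CPM.

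Between the genotypes, no member passed the test. A gene was called at an edgeR adjusted p under 0.05 and a fold over 1.5, and 0 of 10 members met this, against 0.0466% of all genes tested. At an unadjusted p under 0.05 there was 1 member, Slc2a1, against 1328 of the 12863 genes, and limma-voom and DESeq2 on the same pools called 0 members, against 0.0622% and 1.56% of the genes they tested. Of the members, 4 were higher and 6 lower in C2KO, with a median absolute log2 difference of 0.12, against 0.17 over all genes tested. For 3 of 10 members both C2KO pools were outside the range of the WT pools, against 27.6% of all genes tested. These were Slc2a4 and Akt2 (lower) and Slc2a1 (higher). Scaled by library totals instead of TMM, 4 members lay apart, these 3 and Irs2. On that scale, without the 2 fibres with the fewest genes detected, only Slc2a4 and Slc2a1 lay apart. Those fibres were 2445-11 of pool 2445 and 50 of WT pool 3 (an alternative added after the data were seen).

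**Figure D2:**
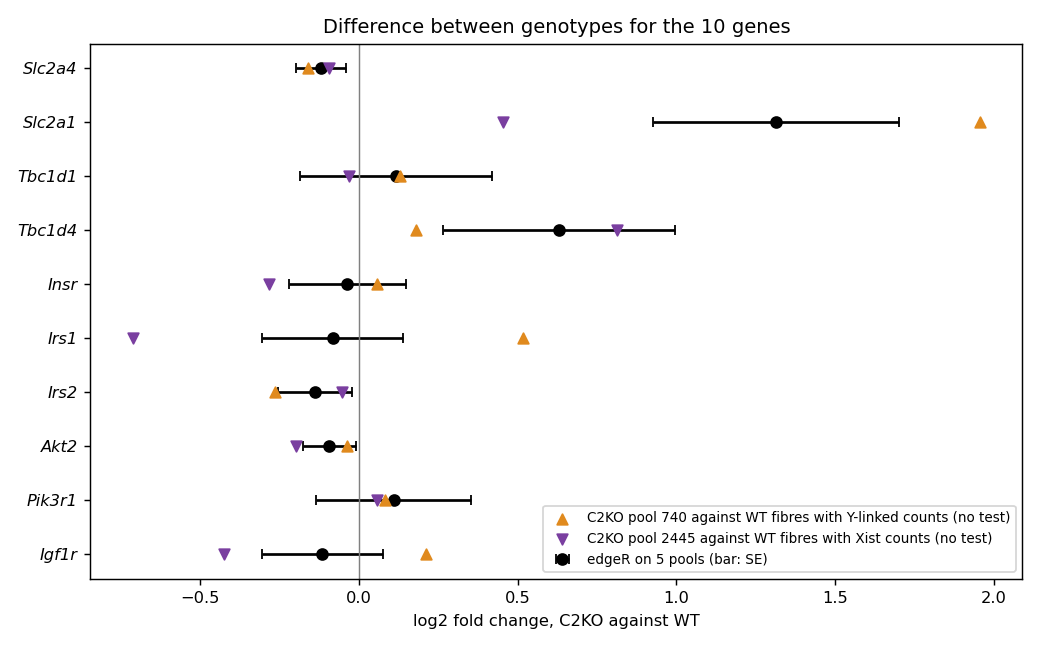
Log2 fold change of each gene, C2KO against WT. Black points are the edgeR estimates over 5 pools with their SE, and triangles compare the summed counts of 1 C2KO pool with those of the WT fibres that held the same kind of sex-linked counts, with no test. Slc2a1 is farthest from 0, and for Irs1 the triangles lie on opposite sides of 0, at 0.52 and -0.71.

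The insulin-responsive transporter was slightly lower in both C2KO pools, without passing the test. Slc2a4 (chromosome 11, 69942286 to 69948190, minus strand, mm10 as in the count files) had 611, 646 and 622 CPM in WT pools 1, 2 and 3, and 570 and 582 CPM in C2KO pools 740 and 2445. All WT pools were above both C2KO pools, and the log2 difference was -0.12 (SE 0.079, edgeR adjusted p = 0.630). Single fibres overlapped widely, from 480 to 809 CPM in WT (median 624) and from 392 to 831 CPM in C2KO (median 564). Slc2a4 was the least variable member, with a coefficient of variation (CV) between WT fibres of 10.6%, where counting error alone gives 1.19%.

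Slc2a1, the basal transporter (chromosome 4, 119108745 to 119137329, plus strand), showed the largest difference of the 10. It had 31.6, 13.9 and 19.7 CPM in the WT pools and 70.5 and 37.6 CPM in pools 740 and 2445. Both C2KO pools exceeded every WT pool, with a mean of 54.02 CPM ± 23.2 (SD, n = 2 pools) against 21.7 CPM ± 9.03 (SD, n = 3 pools). The log2 difference of 1.31 (SE 0.39) was not called (edgeR adjusted p = 0.413). Among fibres, WT ran from 8.01 to 63.9 CPM (median 17.1) and C2KO from 23.01 to 148 CPM (median 40.04). The highest fibre, 740-12, was among the 12 highest in fibroblast and endothelial markers, without which C2KO reached 117 CPM. All 20 C2KO fibres lay above the WT median, 20 of 27 WT fibres lay below the lowest C2KO fibre, and the 5 C2KO fibres above the highest WT fibre were all of pool 740. Tested over 47 fibres, which share mice so that p-values are too small, Slc2a1 was the 1 member called (log2 difference 1.33, SE 0.24, edgeR adjusted p = 7.79e-05), where 4.78% of genes were called. With sequencing run in that fit the difference was 2.49. That estimate rests on 1 C2KO fibre, since only run 0092 held both genotypes. In run 0092 the single C2KO fibre held 109 CPM, and the 7 WT fibres held 8.01 to 50.4 CPM (median 14.2).

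The size of the Slc2a1 difference depended on the C2KO pool. Without pool 740, which also had the highest median of fibroblast markers, it was 0.79 (edgeR adjusted p = 0.591) and without pool 2445 it was 1.70 (edgeR adjusted p = 0.0841). Against WT fibres with the same kind of sex-linked counts it was 1.96 for pool 740 and 0.45 for pool 2445, with 10 of 10 fibres above the WT median of that kind in both. GLUT1 is also carried by endothelial cells, and in whole-fibre RNA more cells attached to a fibre cannot be told apart from more RNA per fibre. The endothelial markers had medians of 0.878 CPM (WT) and 1.02 CPM (C2KO), and their highest sums were 6.54 CPM and 168 CPM. Across fibres, Slc2a1 and the summed fibroblast and endothelial markers had a Spearman rho of -0.11 and a Pearson r of -0.098 (n = 47, deviations from pool means). Without the 12 fibres highest in those markers the Slc2a1 difference was 1.26 (edgeR adjusted p = 0.483). Scaled by library totals, its pools then overlapped, whereas with all fibres they did not.

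The bases just upstream of the Slc2a1 start are shown because it was the member with the largest difference. The window is chr4:119108649-119108744 on the plus strand (RefSeq, GRCm38.p6), and capitals mark ACGTG, the core of the hypoxia response element.

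Slc2a1: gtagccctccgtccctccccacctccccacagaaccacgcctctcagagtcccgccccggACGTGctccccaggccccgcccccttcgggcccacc

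ACGTG was found on either strand upstream of 16.6% of 32851 RefSeq starts, and in 4 of the 13 windows of members. These were windows of Akt2, Irs1, Irs2 and Slc2a1, and in Irs1 and Irs2 the letters are part of the CACGTG marked further below. No test of these counts was made. A match is a description of the letters and shows no binding. Promoter windows were held for 8 members, and Slc2a4 and Insr had none.

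The transporters were also compared as a share. Per kilobase, Slc2a4 was 94.6%, 97.7% and 96.6% of the Slc2a4 and Slc2a1 signal in the WT pools and 88.1% and 93.4% in C2KO pools 740 and 2445. The difference, C2KO minus WT, was -5.60 percentage points, and the pools did not overlap. It was -2.94 points without pool 740 and -8.26 points without pool 2445. An exact two-sided permutation test over the 5 pools gave p = 0.1, the smallest value 5 pools allow, and 0.3 after adjustment over the 6 shares examined. The fibres ran from 89.7% to 98.7% in WT and from 72.7% to 96.03% in C2KO, where the lowest was 740-12, a marker-high fibre.

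The RabGAPs that hold GLUT4 vesicles back were dominated by Tbc1d1. Tbc1d1 (chromosome 5, 64160260 to 64351486, plus strand) had 152, 84.9 and 107 CPM in the WT pools and 92.2 and 156 CPM in pools 740 and 2445. The C2KO pools fell inside and just above the WT range, and the log2 difference was 0.12 (SE 0.30, edgeR adjusted p = 0.923). Tbc1d4, also known as AS160 (chromosome 14, 101442360 to 101609191, minus strand), had 4.14, 2.44 and 2.93 CPM in WT and 3.20 and 6.62 CPM in C2KO. Its difference was 0.63 (SE 0.36, edgeR adjusted p = 0.592), and the pools overlapped. It rested on pool 2445, being 0.019 without that pool and 1.06 without pool 740, and it was 0.35 without the 2 fibres with the fewest genes. Tbc1d4 was near the limit of these libraries, with 0 counts of 7769593 in 1 WT fibre, which allows a level of up to 0.386 CPM, and 18.1 CPM in 1 fibre of pool 2445. Tbc1d1 made up 97.6% to 97.8% of the pair per kilobase in WT pools and 97.2% and 96.6% in C2KO pools. The difference was -0.849 points without overlap of the pools (exact permutation p = 0.1, adjusted over the 6 shares 0.3), and -0.364 points without those 2 fibres.

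**Figure D3:**
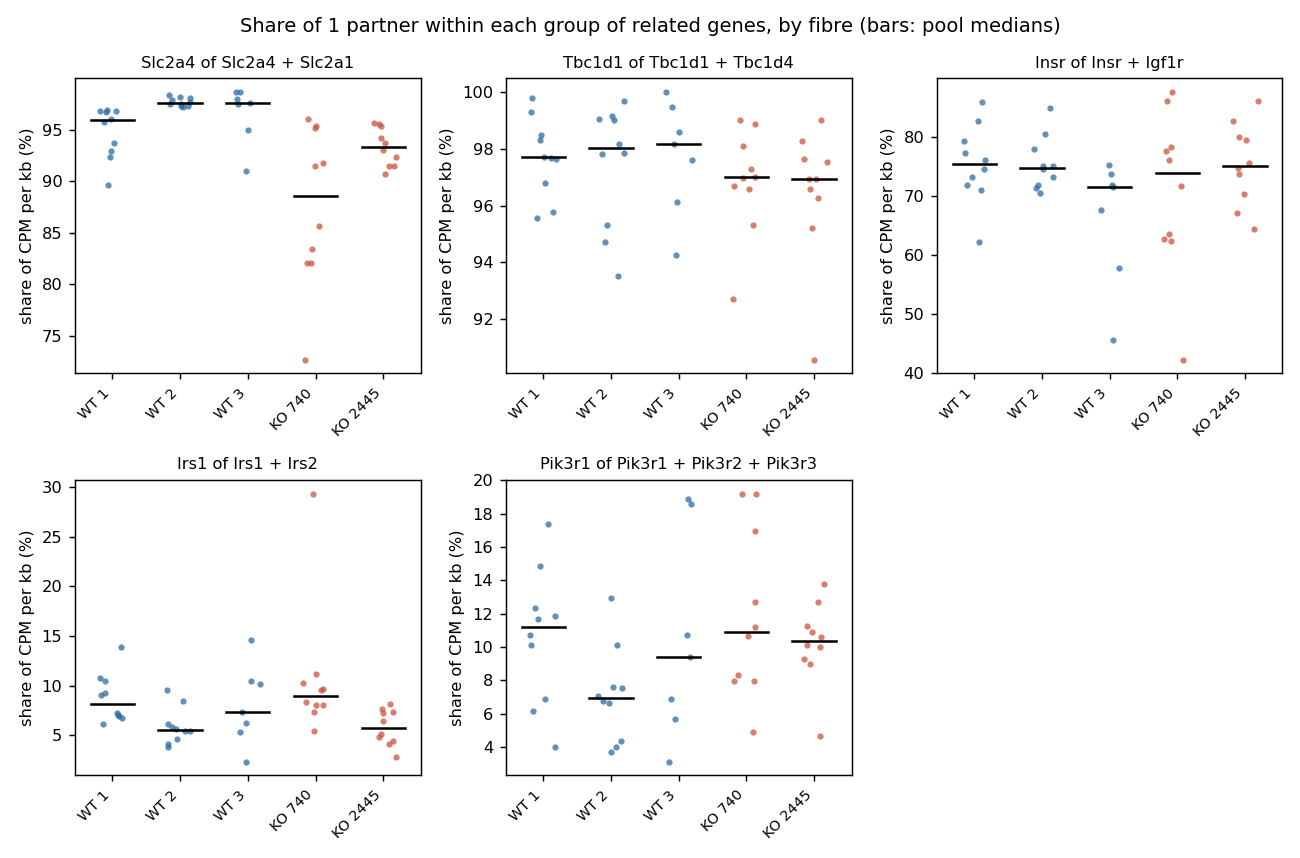
Share of 1 partner in the summed CPM per kilobase of 5 groups of related genes, in percent, for each fibre (points) with pool medians (bars). The Slc2a4 share falls to 72.7% in the lowest C2KO fibre, while the Tbc1d1 share stays above 90% in all fibres. That lowest fibre, 740-12 of pool 740, was among the 12 highest in fibroblast and endothelial markers.

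Tbc1d1 was spread in a way that genotype did not describe. WT fibres ran from 51.6 to 220 CPM (CV 39.2%, counting error 2.79%), and in WT pool 2 most fibres lay near 68.2 CPM, the pool's median, with 2 at 152 and 162 CPM. When fibres were separated by sex-linked counts, the 12 WT fibres with Xist counts had a median of 145 CPM and the 15 with Y-linked counts 69.8 CPM. The C2KO pools showed medians of 146 CPM in pool 2445, whose fibres held Xist counts, and 88.4 CPM in pool 740, whose fibres held Y-linked counts. Within WT pool 1 the medians were 148 CPM (6 fibres, Xist) and 134 CPM (4 fibres, Y-linked), within WT pool 2 152 CPM (3) and 65.3 CPM (7), and within WT pool 3 145 CPM (3) and 73.5 CPM (4). The Xist median was thus the higher in each WT pool, but the fibres of 1 kind may come from 1 mouse, so sex and mouse cannot be told apart and no test was made.

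Neither the insulin receptor nor its relative differed beyond the spread of the pools. Insr (chromosome 8, 3150922 to 3279617, minus strand) had 20.8, 16.04 and 13.6 CPM in the WT pools and 17.2 and 15.7 CPM in C2KO, and the C2KO pools lay inside the WT range. The difference was -0.04 (SE 0.19, edgeR adjusted p = 0.966). Igf1r, the receptor of insulin-like growth factor 1 (chromosome 7, 67952257 to 68233667, plus strand), had 8.37, 6.51 and 8.81 CPM in WT and 8.21 and 6.37 CPM in C2KO. Its difference was -0.11 (SE 0.19, edgeR adjusted p = 0.871) and the pools overlapped. Per kilobase, Insr was 76.1%, 75.9% and 66.4% of the pair in WT and 72.8% and 75.97% in C2KO (exact permutation p = 0.9). Both receptors were sparse, with 60 to 408 counts of Insr and 29 to 177 of Igf1r in a fibre, and the CV of Insr between WT fibres was 38.6% where counting error gives 7.18%.

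The receptor substrates were unequal, Irs2 exceeding Irs1 in every pool. Irs2 (chromosome 8, 10986964 to 11008430, minus strand) had 268, 258 and 268 CPM in the WT pools and 213 and 268 CPM in pools 740 and 2445. Pool 740 alone was below WT, and the difference was -0.14 (SE 0.12, edgeR adjusted p = 0.707). Irs1 (chromosome 1, 82233105 to 82291439, minus strand) had 54.9, 35.3 and 47.9 CPM in WT and 50.5 and 36.4 CPM in C2KO. Both C2KO pools lay inside the WT range, with a difference of -0.08 (SE 0.22, edgeR adjusted p = 0.929). Per kilobase Irs1 was 5.65% to 8.22% of the pair in WT pools and 9.42% and 5.61% in pools 740 and 2445 (exact permutation p = 1.0). Exons of Irs2 share 162 bases with 9530052E02Rik, a transcript on the opposite strand (chromosome 8, 11007850 to 11054541), which limits how far the counts can be told apart if the kit did not keep strand.

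The pair is shown upstream of its starts because both windows hold the same 2 motifs close together. Capitals mark CACGTG (an E-box) and TGTTTTG, the core of the insulin response element at which FOXO factors bind. The windows are chr1:82291440-82291594 for Irs1 and chr8:11008930-11009013 for Irs2, both on the minus strand and both ending at the last base before a RefSeq start (GRCm38.p6). The RefSeq start used for Irs2 lies upstream of the gene's end in the count files, and its window is inside the span of 9530052E02Rik.

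Irs1: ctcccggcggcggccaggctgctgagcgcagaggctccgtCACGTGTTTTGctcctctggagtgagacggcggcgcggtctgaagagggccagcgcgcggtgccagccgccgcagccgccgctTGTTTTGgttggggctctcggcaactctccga
Irs2: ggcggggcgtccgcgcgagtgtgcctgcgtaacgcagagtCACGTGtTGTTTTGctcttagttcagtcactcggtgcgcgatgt

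In Irs1 the motifs overlap and are followed by ctc, and in Irs2 they lie 1 base apart with ctc after them. Searched on both strands of the 250 bases before each start, CACGTG was in 6.02% and TGTTTTG in 5.56% of the 32851 windows. Both were present in 0.295% of windows. An E-box that overlaps the core or lies within 3 bases before it was in 7 windows, or 0.0213%. Of these, 2 were those of Irs1 and Irs2. This pair was shown for that closeness, so the count is a description and no test. TGTTTAC, a FoxO element, was in 3.17% of windows and in none of the 13 windows of members. Across fibres the levels of Irs1 and Irs2 had a weak relation (Spearman rho 0.11, Pearson r -0.045, n = 47, deviations from pool means).

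Irs1 differed from WT in opposite directions in the 2 C2KO pools once fibres with the same kind of sex-linked counts were compared. WT fibres with Y-linked counts ran from 23.9 to 61.95 CPM (median 34.4, n = 15) and those with Xist counts from 39.3 to 98.5 CPM (median 55.05, n = 12). Pool 740, with Y-linked counts, ran from 35.9 to 80.6 CPM (median 51.9), and pool 2445, with Xist counts, from 17.97 to 48.5 CPM (median 34.6). All 10 fibres of pool 740 were above the median of their WT counterparts and all 10 of pool 2445 below it, a log2 difference of summed counts of 0.52 and -0.71. The WT pools hold both kinds of fibre, so the comparison of pools averages over them. Akt1 showed the same arrangement, with medians of 25.6 CPM (Y-linked) and 42.7 CPM (Xist) in WT and 44.1 CPM in pool 740 and 31.8 CPM in pool 2445. Its differences were 0.75 and -0.42, again with 10 and 0 fibres above the WT median. The difference between the pools was not tested, because each C2KO kind is 1 pool. Fibres of 1 kind may come from 1 mouse, so sex, mouse and pool cannot be told apart. Irs1 was found by screening the 10 members for this arrangement, and its share over all genes was not computed.

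**Figure D4:**
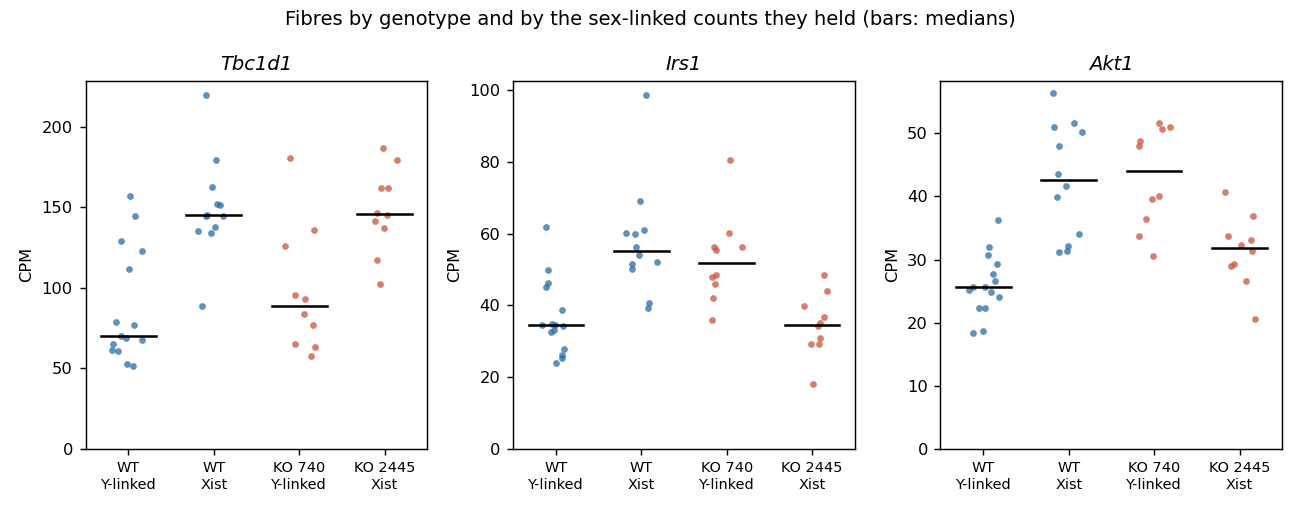
CPM of Tbc1d1, Irs1 and Akt1 in each fibre (points) by genotype and by whether the fibre held more Y-linked or more Xist counts, with medians (bars). The Tbc1d1 medians are higher with Xist counts in both genotypes (145 and 146 CPM), whereas the Irs1 and Akt1 medians are ordered one way in WT and the other way in C2KO.

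Downstream, Akt2 was slightly lower and Pik3r1 did not differ beyond its spread. Akt2, the AKT isoform that serves insulin action in muscle (chromosome 7, 27591560 to 27639453, plus strand), had 230, 212 and 211 CPM in the WT pools and 203 and 206 CPM in C2KO. The pools did not overlap, but the difference of -0.09 (SE 0.084, edgeR adjusted p = 0.737) was about 1 SE. It turned to 0.04 without the 12 fibres highest in fibroblast and endothelial markers. Over fibres with run as a term, where genotype rests on 1 C2KO fibre, it was 0.21. Akt1 itself had 33.3, 31.1 and 36.3 CPM in the WT pools and 41.7 and 33.2 CPM in pools 740 and 2445 (log2 difference 0.16, SE 0.13, edgeR adjusted p = 0.707).

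Pik3r1, which encodes the p85 alpha subunit (chromosome 13, 101680761 to 101768217, minus strand), had 7.31, 4.41 and 5.44 CPM in WT and 5.49 and 6.87 CPM in C2KO. These overlapped, with a difference of 0.11 (SE 0.24, edgeR adjusted p = 0.911). In these fibres Pik3r2, the gene of p85 beta, was the more abundant subunit, with 23.4, 22.9 and 18.3 CPM in the WT pools and 15.3 and 23.2 CPM in pools 740 and 2445 (log2 difference -0.16, SE 0.20, edgeR adjusted p = 0.821). Pik3r1 was 6.86% to 10.4% of the Pik3r1, Pik3r2 and Pik3r3 signal per kilobase in WT pools and 11.4% and 10.2% in C2KO pools (exact permutation p = 0.5). The means of Pik3r3 were 4.72 CPM (WT) and 4.59 CPM (C2KO), a small difference (-0.04, SE 0.19, edgeR adjusted p = 0.965).

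Across fibres the members did not move as 1 unit. After each pool's mean was subtracted from log2(CPM + 1), the strongest positive pairs over 47 fibres were Akt2 with Igf1r (Spearman rho 0.49, Pearson r 0.47), Tbc1d1 with Pik3r1 (0.48 and 0.48) and Tbc1d1 with Irs1 (0.46 and 0.55). Slc2a4 ran against Tbc1d1 (-0.41 and -0.46) and Insr (-0.40 and -0.30). Fibres share mice, runs and depth, and CPM values of 1 library sum to a constant, so these values are descriptions. Some pairs differed between genotypes, such as Insr with Pik3r1 at a Spearman rho of 0.41 in 27 WT fibres and -0.48 in 20 C2KO fibres, and Tbc1d1 with Irs2 at 0.25 and -0.44, and neither difference was tested. These values are not like for like, since each C2KO pool held 1 kind of sex-linked counts while WT pools mixed both, so that subtracting pool means leaves differences between the kinds in WT. Depth had a Spearman rho of 0.44 with Irs2 over 47 fibres (0.446 in WT and 0.445 in C2KO). With Tbc1d1 it was -0.14 over 47 fibres, 0.13 in WT and -0.55 in C2KO. The part of depth in the relation of Tbc1d1 with Irs2 was not tested.

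**Figure D5:**
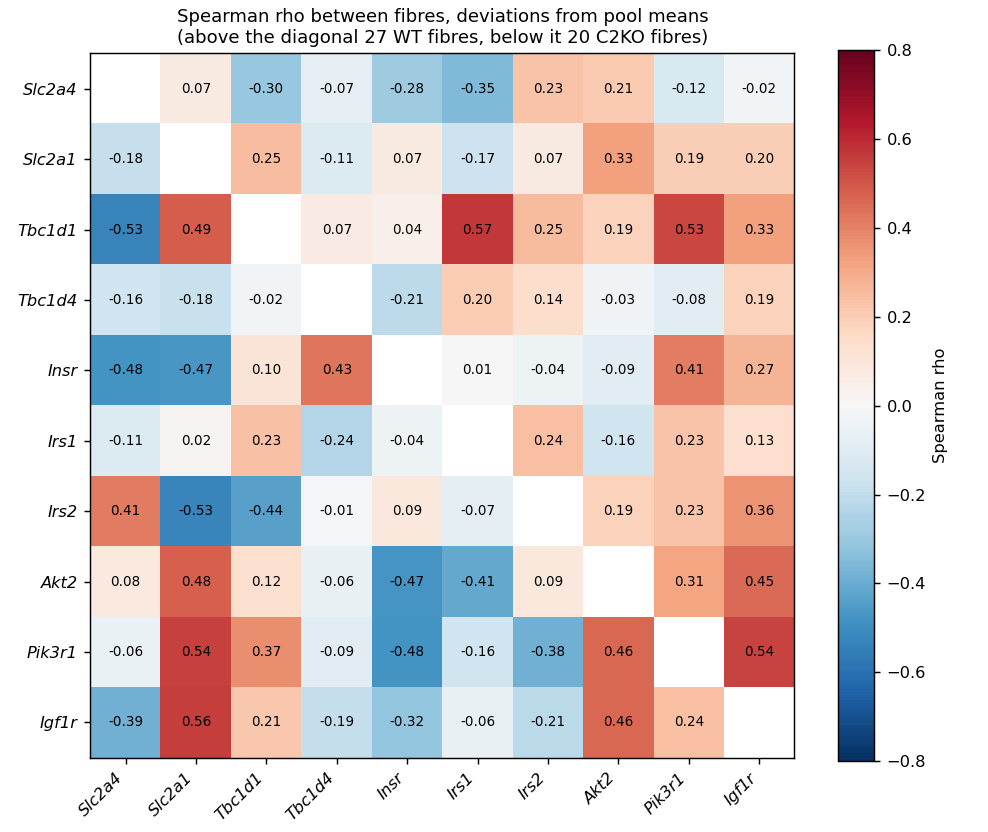
Spearman rho between members across fibres, after subtracting each pool's mean of log2(CPM + 1), for 27 WT fibres above the diagonal and 20 C2KO fibres below it. Tbc1d1 with Irs1 reaches 0.57 in WT, and Slc2a4 with Tbc1d1 is negative in both genotypes (-0.30 and -0.53).

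The genes with the most similar pattern were sought among the 6053 with a mean of at least 10 CPM. For Slc2a4 they were Cars (Spearman rho 0.68), Gm15612 (0.65) and Trip10 (0.64). For Tbc1d1 they were Dok7 (0.70), an adaptor of the neuromuscular junction, Smad7 (0.69), a brake on TGF-beta signalling, and Foxo1 (0.63), a transcription factor that AKT excludes from the nucleus. Smad7 and Tbc1d1 had a rho of 0.84 in WT fibres and 0.15 in C2KO fibres, to which the same mixing of kinds in WT pools applies. For Insr they were Gsk3b (0.66), a kinase that AKT inhibits, Ttn (0.64) and Mapt (0.64), and for Irs1 they were Fbxl22 (0.67), Camk2d (0.66) and Stbd1 (0.65). For Irs2 the first was its antisense neighbour 9530052E02Rik (0.97), followed by Arhgef1 (0.64) and Atg9a (0.62).

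The same search for Slc2a1, added after its values were seen, gave Gabarapl1 (0.80), an autophagy gene, Slc38a2 (0.80), an amino acid transporter, and Trim63 (0.79), the muscle ubiquitin ligase MuRF1. Trim63 averaged 601 CPM over WT fibres and 1148 CPM over C2KO fibres (log2 difference 0.90, SE 0.21, edgeR adjusted p = 0.395), and Slc38a2 382 and 634 CPM (0.67, SE 0.36, edgeR adjusted p = 0.561). The relation with Trim63 was present within WT (0.70) and within C2KO fibres (0.89). For Akt2, also added afterwards, the values were the highest apart from 9530052E02Rik, with Tle1 (0.87), Pfkfb4 (0.86) and Crtc2 (0.86).

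The wider pathway was covered by 7 lists of genes, 111 of whose 115 members were tested. None was called (edgeR), against 0.0466% of all genes tested. At an unadjusted p under 0.05 there were 15 of 111, against 1328 of the 12863 genes. On the same pools limma-voom called 0 and DESeq2 called 4, against 0.0622% and 1.56% of the genes they tested. Of the 111, 56 were higher and 55 lower in C2KO. The C2KO pools lay beyond the WT pools for 31 of 111, against 27.6% of all genes tested. By list these were 1 of 6 ligands, 5 of 15 adaptors, 6 of 22 in PI3K and AKT, 9 of 19 AKT outputs, 3 of 28 in GLUT4 traffic, 5 of 12 in AMPK and 2 of 9 other transporters. The median log2 difference over the lists was 0.00055, against -0.00038 over all genes.

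Among receptor-proximal adaptors and brakes, 7 were higher and 8 lower (median -0.03). Mean levels are given as WT, then C2KO. Socs3, an inhibitor of cytokine and insulin signalling, was the most abundant at 638 and 541 CPM, and Grb10, an adaptor that restrains INSR, was at 49.4 and 48.5 CPM. The largest differences were in Ptpn11, the phosphatase SHP2, at 43.6 and 28.7 CPM (-0.60, SE 0.15, edgeR adjusted p = 0.407), which DESeq2 called (DESeq2 adjusted p = 0.0251), and Ptpn1, the phosphatase PTP1B that acts on INSR, at 22.9 and 31.4 CPM (0.45, SE 0.28, edgeR adjusted p = 0.611). In the PI3K, lipid phosphatase and AKT list 9 were higher and 13 lower (median -0.03). Ppp2ca was at 150 and 169 CPM and the catalytic subunit Pik3ca at 63.6 CPM in both. Rptor, the subunit that defines mTORC1, had 25.7, 25.02 and 22.03 CPM in the WT pools and 17.04 and 14.3 CPM in the C2KO pools (-0.63, SE 0.13, edgeR adjusted p = 0.355, DESeq2 adjusted p = 0.00401). Rictor, its mTORC2 counterpart, was at 19.3 and 24.8 CPM (0.36, SE 0.22, edgeR adjusted p = 0.604).

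In the list of AKT substrates and outputs 10 were higher and 9 lower (median 0.0032). Gys1, glycogen synthase, was at 414 and 388 CPM. Hk2, the hexokinase that traps glucose in muscle, was at 302, 193 and 341 CPM in the WT pools and 474 and 388 CPM in the C2KO pools (0.63, SE 0.24, edgeR adjusted p = 0.462), and Pdk4, which inhibits pyruvate dehydrogenase, was at 128 and 212 CPM (0.74, SE 0.33, edgeR adjusted p = 0.503). Both C2KO pools exceeded all WT pools for Hk2 and Pdk4.

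For GLUT4 storage and traffic 15 were higher and 13 lower (median 0.02). Rab10, a Rab that TBC1D4 controls, was at 487 and 495 CPM, and Rac1 at 227 and 239 CPM. Exoc7, a subunit of the exocyst that tethers vesicles at the surface, had 58.7, 60.5 and 47.8 CPM in WT and 96.8 and 95.9 CPM in C2KO. This log2 difference of 0.79 (SE 0.12) was not called (edgeR adjusted p = 0.213), although DESeq2 called it (DESeq2 adjusted p = 4.13e-06). Myo1c was at 26.3 and 32.8 CPM (0.32, SE 0.14, edgeR adjusted p = 0.499).

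On the AMPK and contraction side 6 were higher and 6 lower (median 0.0086). Prkab2 was at 494 and 518 CPM and Prkag3, the gamma subunit typical of fast fibres, at 284 and 238 CPM. Prkag2, another gamma subunit, was at 5.44 and 11.4 CPM (1.06, SE 0.25, edgeR adjusted p = 0.395, DESeq2 adjusted p = 0.0114), and Stk11, the AMPK kinase LKB1, at 36.3 and 24.6 CPM (-0.56, SE 0.23, edgeR adjusted p = 0.486). Among other transporters and uptake brakes 5 were higher and 4 lower (median 0.06). Rrad was at 721 and 752 CPM, Txnip, an arrestin that removes glucose transporters from the surface, at 447 and 504 CPM, its relative Arrdc4 at 17.9 and 24.96 CPM (0.48, SE 0.15, edgeR adjusted p = 0.416), and Slc2a12 at 11.6 and 10.05 CPM.

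The ligand and binding protein list had the widest median, 1.18, with 4 higher and 2 lower of 6, but it turned to -0.56 without pool 740, which held the fibres highest in fibroblast markers. The part of those markers in it was not tested. Its abundant members ran the other way, with Igfbp5 at 323, 285 and 242 CPM in the WT pools and 214 and 191 CPM in pools 740 and 2445 (-0.49, SE 0.14, edgeR adjusted p = 0.413), and Igf2r at 41.5 and 35.5 CPM (-0.23, SE 0.19, edgeR adjusted p = 0.709).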

How the data were processed

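Raw counts were deposited by the authors, 1 table for each fibre with 24421 genes. Per the file headers, read pairs over exons were counted by gene name with featureCounts 1.5.2 on mm10, strand option 2, without multi-mapping reads. FastQC 0.11.2, CASAVA 1.4 and HISAT2 2.0.5 are listed in the submitters' processing notes. The sources used here do not give whether the kit kept strand. Levels between genes were compared per kilobase of the files' exon length.

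Deposited counts were summed into 5 pools and tested with edgeR 4.0.16 in R 4.3.3 (quasi-likelihood, TMM, filterByExpr, Benjamini-Hochberg adjustment over 12863 genes). The test was also run on counts simulated from the means and spread of these pools, with the outcome not reported here. The labels do not say that pools are separate mice. All fibres of pool 740 held more Y-linked counts and all of pool 2445 more Xist counts. The 2 C2KO pools thus share no mouse if these counts follow the sex of the mouse. With 2 C2KO mice named, the spread between these pools is then also that between 2 mice. WT pools share mice, so p-values measure the spread between pools, which may be technical. Pool values are TMM-scaled CPM unless library totals are named, and fibre values are counts per 1e6 counts. The limit for a count of 0 uses 3 counts and covers counting error only. Shares were tested by exact two-sided permutation over pools. Of the 6 shares, 1 is not reported here.

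The members and lists were chosen with earlier results of these data known. Named genes were the members, the partners in the shares, the called genes of each list or else its 2 most abundant and its 2 most changed members (mean of at least 5 CPM), and the 3 genes most like Slc2a4, Tbc1d1, Insr, Irs1 and Irs2. Alternatives used limma 3.58.1, DESeq2 1.42.0, other scalings, no filter, fibres as units, and leaving out pools, the 12 fibres over 3 times the median fibroblast and endothelial marker sum, or the 2 fibres with the fewest genes.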

Additional observations from a re-analysis of the deposited data

Results flagged for a closer look

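In 50 groups, each a member in 1 pool, 7 had a highest fibre set far apart from the others of its pool by Dixon's ratio. Chance flags about 1 group in 20 only for independent, normally spread values. Here the same fibres recur across groups and CPM were not put on a log scale, so these rates are not like for like. Fibre 50 of WT pool 3 held 598 CPM of Irs2, where the next fibre of its pool held 258 CPM, and 24.97 CPM of Insr, where the next held 14.5 CPM. The same fibre had 0 counts of Tbc1d4, and its 11183 genes detected were the fewest of the WT fibres. Fibre 2445-11 of pool 2445 held 18.1 CPM of Tbc1d4 (next 7.54 CPM) and 31.5 CPM of Insr (next 16.2 CPM), and it was the lowest of all 47 fibres in Slc2a4 at 392 CPM and in genes detected, with 10408. The part of library quality in these values was not tested. The others were Slc2a4 at 710 CPM in WT pool 1 (next 624 CPM), Insr at 33.3 CPM in WT pool 2 (next 20.9 CPM) and Akt2 at 377 CPM in WT pool 1 (next 269.5 CPM).

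Irs1 moved one way in each C2KO pool against WT fibres with the same kind of sex-linked counts. The log2 difference was 0.52 in pool 740, with 10 of 10 fibres above the WT median, and -0.71 in pool 2445, with 0 of 10 above it. The difference between the pools was not tested. The members were screened for this arrangement, and its share over all genes was not computed.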

How the results depend on the processing

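No member was called in 15 of 17 alternative counts, and Slc2a1 was the 1 member called by edgeR and the 1 by limma-voom over 47 fibres. The Slc2a1 difference stayed positive in every alternative, from 0.45 to 2.49, the latter from the fit with run. No paired analysis was possible because replicate numbers were given in accession order and pair no samples. Sign changes of members, none of them called, were as follows. With run as a term, where genotype rests on 1 C2KO fibre, Insr was 0.29, Irs1 0.041, Akt2 0.21 and Igf1r 0.47. Without the marker-high fibres, Insr was 0.13, Akt2 0.043 and the Irs1 share -0.316 points. Non-overlapping members, here scaled by library totals, then numbered 1, against 4 with all fibres on that scale. Without the 2 fibres with the fewest genes, an alternative added after seeing the data, non-overlapping members numbered 2 on that scale. The Irs1 share was then -0.226 points. Leaving out 1 pool at a time, Tbc1d4 ran from 0.019 to 1.06, Tbc1d1 from -0.31 to 0.45, Insr from -0.16 to 0.14, Irs1 from -0.34 to 0.14, Irs2 from -0.31 to 0.021, Pik3r1 from -0.055 to 0.32 and Igf1r from -0.31 to 0.065, the Slc2a4 share from -8.26 to -2.94 points, the Tbc1d1 share from -1.15 to -0.549 points, the Pik3r1 share from 0.553 to 2.33 points, the Insr share from -1.64 to 3.19 points and the Irs1 share from -1.43 to 2.38 points, and non-overlapping members numbered 3 to 6. List medians without 1 pool ran from -0.56 to 1.58 for ligands, -0.088 to 0.089 for adaptors, -0.10 to 0.051 for PI3K and AKT, -0.089 to 0.037 for AKT outputs, -0.012 to 0.033 for GLUT4 traffic, -0.077 to 0.059 for AMPK (-0.076 by limma-voom) and -0.041 to 0.17 for other transporters. The cause of these changes was not tested. The counts with 1 pool left out kept the TMM scale, and pools lie apart more easily when 1 is left out. The share of all genes with non-overlapping pools was not computed under any alternative, so these member counts show no trait of the members. All genes called numbered 6 here, 210 by DESeq2, 485 by edgeR over fibres and 358 without pool 2445. Counting error gives a CV of 16.8%, 12.4% and 10.7% for Tbc1d4, Pik3r1 and Igf1r in WT fibres. Their observed CVs were 70.5%, 46.7% and 35.1%, above what counting error alone gives. In WT fibres these genes had a Spearman rho with depth of 0.42, -0.067 and -0.076 (deviations from pool means). The part of depth in their spread was not tested.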
